A study of Mus musculus with 12 samples.

Results

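The genes described here belong to families named for the axoneme and the accessory fibres of the sperm flagellum, and some members have other roles. They were chosen by symbol, as the autosomal protein-coding genes of the GENCODE M21 annotation (mouse build mm10) whose names start with Cfap, Dnah, Dnaic, Dnali, Tekt, Rsph, Spag or Odf followed by a digit, together with Ccdc39 and Ccdc40. This gave 84 of 20807 genes. Transcription was profiled by leChRO-seq, a run-on assay that maps RNA polymerase engaged on chromatin, in spermatocytes of adult wild-type mice (C57Bl/6J or DBA/2J background). The 12 libraries comprised 4 of leptonema/zygonema (LZ), 4 of pachynema (P) and 4 of diplonema (D), all from cells enriched by STAPUT sedimentation and untreated as far as the labels say. STAPUT fractions are enriched and not pure, and fewer cells of a type cannot be told apart from less RNA per cell.

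Initiation was read from dREG peaks, which mark places where run-on signal has the shape of transcription initiation and get a score that is higher where the shape is clearer. The authors called peaks once per substage on the merged libraries, so the 3 lists hold 71107 (LZ), 68352 (P) and 38603 (D) peaks without any replicate spread, and no difference between substages could be tested. A gene was called in a substage when a peak lay under 1000 bp from one of its annotated transcription start sites (TSSs). Its promoter score is the highest score among those peaks. Scores were not scaled between lists, so each is also given as a percentile among all called autosomal protein-coding genes of the same list, where 50 is the middle. Where 3 values follow each other, they are in the order LZ, P and D.

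The axoneme is the microtubule core of motile cilia and sperm tails, a ring of doublet microtubules around a central pair. Outer and inner dynein arms on the doublets make them slide, radial spokes carry signals from the central apparatus to the arms, and a molecular ruler made of CCDC39 and CCDC40 sets the spacing of arms and spokes. Tektins and other filament proteins line the inside of the doublets, and outer dense fibres surround the axoneme in sperm. In mouse the tail is assembled in spermatids, after meiosis, and RFX factors, which bind the X-box, and the germ cell factor A-MYB are known regulators of ciliary and pachytene genes.

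Part of the promoters held a sequence that the choice by symbol did not use. The X-box core words GTTGCCA and GTTGCTA, searched on both strands in the 300 bases from 250 before to 50 after the 5′ end of the gene, were in 35 of 84 promoters (41.7%) and in 7.57% of all 20802 promoters of the same length read without gaps. Sites are shown for 9 of the 10 structural classes that had a called gene with a word, to let the bases around it be compared. The gene is the one with the highest pachynema score among those with a word, a choice made after the values were seen, and the capitals mark the word.
Dnaic2, chr11:114727375-114727403, plus strand: gcccggccaggGTTGCTAggcaactggta
Rsph1, chr17:31277426-31277454, minus strand: atgcccttccaGTTGCTAggacactattc
Cfap74, chr4:155409192-155409220, plus strand: agcagccttccGTTGCCAtggagctgcgc
Ccdc39, chr3:33844276-33844304, minus strand: ggcgcctggctGTTGCTAgggccgcggaa
Cfap57, chr4:118620771-118620799, minus strand: ccggttttctcGTTGCTAtaggaactgct
Cfap161, chr7:83794862-83794890, plus strand: tagcgtgcttcGTTGCCAtgacgaccagg
Odf2l, chr3:145118596-145118624, minus strand: tggagctcaacGTTGCTAgtaaccggcct
Spag8, chr4:43653551-43653579, plus strand: ccacctcccggGTTGCCAtagagacggca
Dnah14, chr1:181576538-181576566, minus strand: ggagccccgcaGTTGCTAggggcaggcgc

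In Dnaic2, which encodes an outer arm intermediate chain, the word GTTGC is followed after 3 bases by its inverted copy GCAAC. Such a pair was in 6 of 84 promoters (7.14%) and in 52 of 20802 promoters overall (0.25%). The words lay close to the start: of 45 RFX words in the 35 promoters, 28 (62.2%) began in the 30 bases before the 5′ end or in the first 30 bases of the gene, against 23.9% of the 1773 words found in all promoters. Cfap161, which encodes a protein inside the doublets, had 3 words, as did Cfap44, which encodes a tether protein of the inner arms, and Cfap157. A match is a stretch of letters and not a measured binding site.

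MYB words (the stem GCNGTT or the stem CCNGTT, followed by A or G, also on both strands) were in 52 of 84 promoters (61.9%), against 30.3% overall. The RFX and MYB words can overlap, since both hold GTTG, or CAAC on the other strand. With MYB matches that overlap an RFX word left out, a MYB word was in 42 of 84 promoters (50.0%) against 29.3%. MYB words that overlap only the inverted copy GCAAC beside an RFX word, as in Dnaic2, were still counted. The CREB words TGACGTAA and TGACGTCA, searched in the same way, were in 2 of 84 (2.38%) against 3.0%. Base composition was alike at the median, with a GC content of 55.2% in the 84 promoters and 55.3% in all, and a ratio of observed to expected CpG of 0.533 and 0.54. Among called genes CpG was lower, with a ratio of 0.549 in the 75 called in pachynema and 0.732 in all genes called there.

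**Figure D1:**
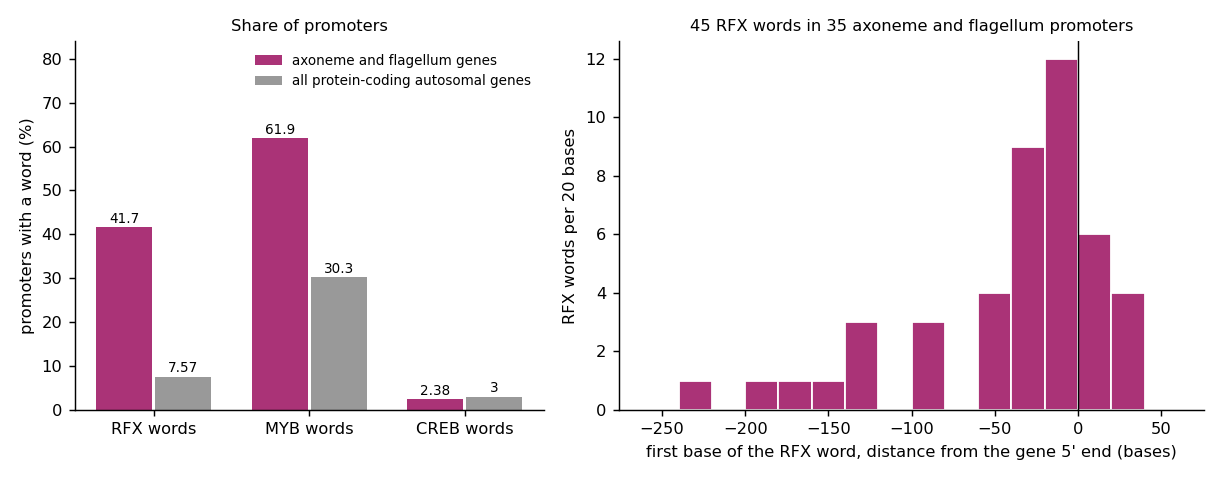
Share of promoters with an RFX, MYB or CREB word in the 300 bases around the gene 5′ end (left, percent, for the 84 axoneme and flagellum genes and for all genes) and position of the 45 RFX words relative to the 5′ end (right, bases, counts per 20 bases). RFX words were in 41.7% and 7.57% of promoters, and most words of the 84 genes begin close to the 5′ end.

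RFX words were found in every structural class, at different shares. The shares were highest in the Cfap and Dnah genes of mixed or less settled roles (9 of 13) and the tether and inner arm anchor genes (3 of 5). They were in 4 of 9 inner arm heavy chain genes, 4 of 10 radial spoke genes, 4 of 10 central apparatus genes and 5 of 11 genes for proteins inside the microtubules. They were in 1 of 5 outer arm heavy chain genes (Dnah5) and 1 of 8 outer dense fibre genes (Odf2l). The remaining classes had 1 of 3 dynein intermediate and light intermediate chain genes, 1 of 2 ruler genes and 2 of 8 other Spag genes. Call rates of the 84 genes with and without an RFX word lay close together. In leptonema/zygonema 33 of 35 genes with a word (94.3%) and 44 of 49 without (89.8%) were called, and in diplonema 28 of 35 and 41 of 49. In pachynema 31 of 35 genes with an RFX word (88.6%) and 44 of 49 without (89.8%) were called, with median percentiles of 64.0 and 61.3. Among all genes 66.3% of those with a word and 60.8% of those without were called in pachynema, with median percentiles of 58.4 and 49.5. For MYB words the shares lay further apart, with 49, 49 and 45 of 52 genes with a word and 28, 26 and 24 of 32 without called in the order of the substages. Over all genes these shares were 62.9%, 64.3% and 55.9% with a MYB word and 59.8%, 59.9% and 50.8% without. Median percentiles of the called genes among the 84 were 61.4, 61.5 and 60.2 with a MYB word and 56.0, 65.3 and 58.2 without. In pachynema the median was thus lower with a MYB word than without. Over all genes the medians were 52.5, 53.4 and 55.6 with a MYB word and 48.9, 48.5 and 47.6 without.

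Nearly all of the 84 genes had an initiation site at the promoter in fractions enriched for spermatocytes, a stage before the sperm tail is built. The paper gives elongated spermatids as most of the contamination in every fraction, and their part in the calls was not tested. In leptonema/zygonema 77 genes were called (91.7%), against 60.7% of all autosomal protein-coding genes. In pachynema 75 were called (89.3%), against 61.2%, and in diplonema 69 (82.1%), against 52.3%. The fall in diplonema is shared with the background, and the diplonema list is the shortest. All 3 lists called 67 of the genes (79.8%), against 50.2% of all genes, while 5 (5.95%) were called in none, against 35.2%. Of genes called anywhere, 67 of 79 (84.8%) were called in every list, against 77.5% overall.

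**Figure D2:**
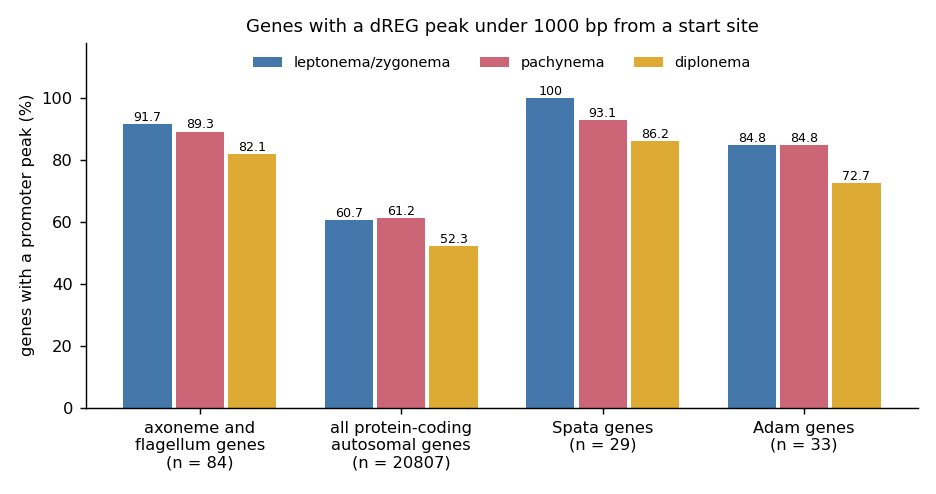
Percent of genes with a dREG peak under 1000 bp from a TSS in each substage, for the 84 axoneme and flagellum genes, all 20807 autosomal protein-coding genes, and the Spata and Adam genes. The 84 genes lie at 82.1% or more in each list, above the 61.2% or less of all genes, and Spata genes lie at or above them.

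High call rates were not particular to axoneme genes, since they were also seen in the Spata and Adam genes, likewise chosen by symbol. Of 29 Spata genes, named for their association with spermatogenesis, 29, 27 and 25 were called in the order of the substages. Of 33 Adam genes, which encode membrane proteins of the disintegrin and metalloprotease family, 28, 28 and 24 were called.

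Of the 84 genes, 12 were called in some lists and not in others (14.3%, against 14.6% of all genes). No gene was called in pachynema alone (2.12% of all genes were) or in diplonema alone (0.437%). Dnah12, an inner arm heavy chain gene, and Odf3b were called in pachynema and diplonema and not in leptonema/zygonema, or 2.38% against 1.46%. Dnah12 scored 0.770 in pachynema and 0.807 in diplonema, and the nearest leptonema/zygonema peak lay 2084 bp from a TSS. Odf3b scored 0.311 and 0.496. These 2 genes made up 2.67% of the 75 called in pachynema, whereas 5.85% of all genes called in pachynema were not called in leptonema/zygonema.

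Called in leptonema/zygonema alone were 4 genes (4.76%, against 2.84% of all genes). They were Cfap157 with a score of 0.429, the inner arm heavy chain gene Dnah2 with 0.389, the radial spoke gene Rsph14 with 0.962, and Spag7 with 0.819. Of the genes called in leptonema/zygonema, 5.19% of these and 5.14% of all genes had no call in pachynema. Dnah2 sat at the edge of the distance rule: its leptonema/zygonema peak was 446 bp from a TSS 4554 bp inside the gene, and its nearest pachynema peak was 1065 bp from a TSS. Rsph14 was the strongest of the 4, with a peak over its TSS, and its nearest pachynema peak was 4305 bp away.

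A further 6 genes were called in leptonema/zygonema and pachynema and not in diplonema (7.14%, against 7.45% of all genes). The tektin genes Tekt2 and Tekt5, whose proteins run inside the doublets, scored 1.245 and 1.072 in leptonema/zygonema and 0.775 and 0.626 in pachynema. Cfap73, for an inner arm anchor, scored 1.211 and 0.496, the spoke gene Rsph10b scored 0.831 and 0.553, and Cfap53 scored 0.781 and 0.337. Dnah11, an outer arm heavy chain gene of airway cilia, went the other way, from 0.581 to 0.9. In all but Dnah11 the percentile was lower in pachynema than in leptonema/zygonema, going from 82.8 to 27.4 for Tekt2, 53.0 to 18 for Tekt5, 76.7 to 10.8 for Cfap73, 29.1 to 14.2 for Rsph10b and 25.6 to 2.52 for Cfap53. Of the genes called in pachynema, 6 of 75 (8.0%) were not called in diplonema, against 15.6% of all such genes. Taken over called and uncalled genes together, those called in pachynema and not in diplonema were 6 of 84 (7.14%), against 9.57% of all genes. With the 3 lists reduced to the same number of peaks, they were 4 of 84 (4.76%), against 4.56% of all genes. The reduced pachynema list called 70 of 84 (83.3%), against 53.8% of all genes. The shares from reduced lists thus have another base than the 8.0% and 15.6%.

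The 6 genes without a diplonema call had low pachynema scores. Genes called in pachynema were divided by score into 4 bins of about equal size, set on all genes. In the bin of the lowest scores 9 of 13 axoneme and flagellum genes were called again in diplonema (69.2%, against 48.4% of all genes), and in the bin above it 11 of 13 (84.6%, against 91.0%). In the next bin all 22 were called again (98.2% of all genes), and in that of the highest scores all 27 (99.8%).

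The 5 genes with no call were Dnah5, Rsph9, Odf3l2, Spag11a and Spag11b. DNAH5 is the outer arm heavy chain of airway cilia, RSPH9 is a spoke head protein, and Spag11a and Spag11b encode defensin-like secreted proteins of the epididymis. The nearest pachynema peak lay 6762 bp from the Dnah5 TSS, 8895 bp from a Rsph9 TSS, 2863 bp from the Odf3l2 TSS, 2495 bp from the Spag11a TSS and 19583 bp from a Spag11b TSS. Dnah5 had peaks inside the gene away from any TSS, 6, 4 and 0 in the order of the substages. The Dnah5 promoter held an RFX word and a MYB word although it had no call.

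Where called, the promoters ranked above the middle of each list at the median, with a wide spread. The median percentile was 60.2, 63.0 and 59.2 in the order of the substages, and 25% of them lay below 36.9, 33.6 and 42.2. Median scores were 1.12, 1.12 and 0.917 against 1.05, 1.03 and 0.839 for all called genes. The top 25% of called genes held 22 of 77, 27 of 75 and 23 of 69 of the promoters, and the bottom 25% held 8, 13 and 7. Median percentiles were 66.6, 67.8 and 51.9 for Spata genes and 25.1, 47.7 and 43.0 for Adam genes. The highest scores in leptonema/zygonema were those of Odf3l1 (1.46), Cfap206 (1.419) and Ccdc40 (1.354). In pachynema they were Odf3l1 (1.42), Spag6 (1.403) and Dnah14 (1.395), and in diplonema Dnah14 (1.334), Dnah1 (1.271) and Odf2l (1.251). Dnaic2 and Rsph4a were the lowest pair in every list, at 0.385 and 0.387 in leptonema/zygonema, 0.278 and 0.306 in pachynema, and 0.282 and 0.286 in diplonema. Dnah2 (0.389) was next lowest in leptonema/zygonema, Odf3b (0.311) in pachynema and Cfap77 (0.338) in diplonema.

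**Figure D3:**
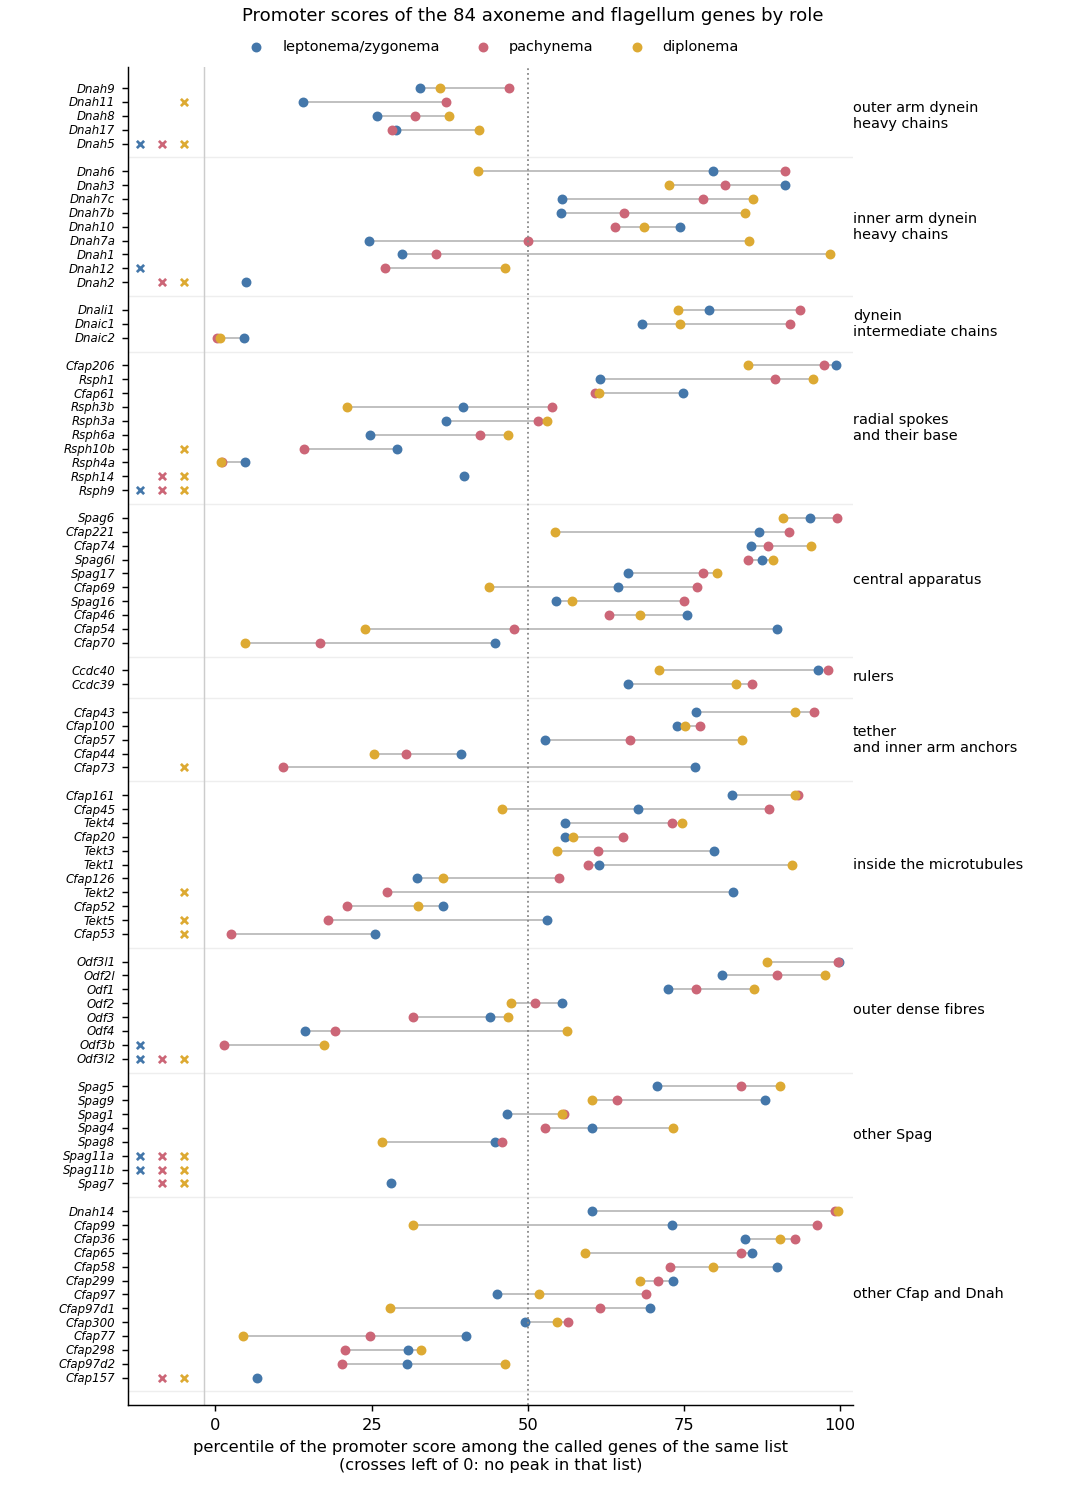
Promoter score percentile of each of the 84 genes in each list (x axis, percent; 50 is the middle of all called genes), grouped by structural class and ordered by pachynema percentile; crosses left of 0 mark a list without a call. Central apparatus genes are called in all 3 lists (50.2% of all genes are), and outer arm heavy chain genes all lie below 50 where called. Tekt2, Tekt5, Cfap53 and Cfap73 are lower in pachynema than in leptonema/zygonema and have no diplonema call.

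Ccdc39 and Ccdc40, the ruler genes, were called in every list, as were 50.2% of all genes. Ccdc39 lies at chr3:33812362-33844310 on the minus strand, with no TSS of another gene under 1000 bp away. Scores were 1.153, 1.246 and 1.095 over the LZ, P and D lists, at percentiles of 66.0, 85.9 and 83.3. The peak covered the 5′ end of the gene in each list and spanned chr3:33844051-33844670 in pachynema. Ccdc40 (chr11:119228572-119265238, plus strand) scored 1.354, 1.357 and 1.003, at percentiles of 96.4, 98.1 and 71.0. It shares its promoter region with Tbc1d16, a gene on the opposite strand, and dREG peaks carry no strand. The 150 bases before the Ccdc39 TSS (minus strand, mm10, chr3:33844311-33844460) held none of the words, since its RFX word starts 17 bases after the TSS.
Ccdc39: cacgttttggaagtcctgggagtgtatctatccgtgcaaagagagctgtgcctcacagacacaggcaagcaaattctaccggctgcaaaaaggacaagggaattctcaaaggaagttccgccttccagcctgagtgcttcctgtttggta

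The dynein arm genes are given by type, and the ranks of the types overlapped. The 5 outer arm heavy chain genes had median percentiles of 27.3, 34.4 and 37.4 over the 4, 4 and 3 called. Dnah8 and Dnah17, which encode the outer arm heavy chains of sperm, scored 0.784 and 0.828 in leptonema/zygonema, 0.839 and 0.788 in pachynema, and 0.722 and 0.769 in diplonema. Dnah9, for a heavy chain of cilia, had the highest pachynema score of the class (1.005), with 0.881 before and 0.710 after. The Dnah8 values come from TSSs inside the gene, 114659 bp from the 5′ end in the first 2 lists and 2581 bp in diplonema, where the peak lies at the divergent gene Glo1. The 9 inner arm heavy chain genes were called 8 times in each list (88.9%), at median percentiles of 55.3, 64.7 and 78.7.

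Dnah6 led the inner arm class in pachynema, with 1.280 against 1.226 in leptonema/zygonema and 0.768 in diplonema. Dnah1, whose protein is an inner arm heavy chain needed for the sperm tail, went from 0.842 and 0.882 to 1.271 in diplonema, or from percentile 35.3 in pachynema to 98.4. Gm35823 and Gm49217 also have a TSS under 1000 bp from one of Dnah1. Dnah7a, Dnah7b and Dnah7c are near-identical genes on chromosome 1, of which Dnah7b and Dnah7c lie side by side, so reads may have been shared among them, and their diplonema scores were 1.114, 1.108 and 1.119. Dnali1, for a light intermediate chain, scored 1.223, 1.302 and 1.024, and the intermediate chain gene Dnaic1 scored 1.165, 1.287 and 1.026. Dnaic1 has a divergent neighbour, Fam219a, whose initiation may lie in the same peak. Dnaic2 has no such neighbour.

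Radial spoke genes were called in 9, 8 and 7 of 10 cases. Cfap206, for a protein at the spoke base, scored 1.419, 1.344 and 1.113 and was the highest in leptonema/zygonema and pachynema. Rsph1, for a spoke head protein, moved up in rank from percentile 61.6 to 89.6 and 95.7 and was the highest in diplonema with 1.219. Rsph4a, for the spoke head protein of motile cilia, scored 0.306 in pachynema, and Rsph6a, its counterpart in sperm, scored 0.961. Rsph3a and Rsph3b, a pair of near-identical genes for a spoke stalk protein, scored 1.047 and 1.064 in pachynema. Cfap61, for a protein of the spoke base, scored 1.200, 1.110 and 0.933 next to the divergent gene Crnkl1. In pachynema the called spoke genes thus ran from percentile 1.1 (Rsph4a) to 97.4 (Cfap206).

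All 10 central apparatus genes were called in all 3 lists (50.2% of all genes were), at median percentiles of 80.6, 77.6 and 62.5. Spag6, for an armadillo-repeat protein of the central pair, was the highest in pachynema with 1.403, beside 1.339 in leptonema/zygonema and 1.164 in diplonema. Its paralog Spag6l scored 1.275, 1.243 and 1.148, and reads may have been shared between the 2. Spag16 and Spag17, whose proteins bind SPAG6 in the central apparatus, scored 1.190 and 1.206 in pachynema. Of the genes for the projections of the central pair, Cfap221 scored 1.271, 1.285 and 0.876, Cfap74 1.263, 1.261 and 1.214, and Cfap46 1.204, 1.122 and 0.983. Cfap74 thus kept a percentile of at least 85.7 in each list while Cfap221 went to 54.3 in diplonema. Cfap54 and Cfap70 ranked below the middle of the pachynema list, and Cfap69 was at percentile 43.8 in diplonema. Cfap54 went from percentile 89.9 to 47.8 and 23.9, and Cfap70 from 44.7 to 16.7 and 4.76.

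All 5 tether and inner arm anchor genes were called in leptonema/zygonema and pachynema and 4 in diplonema. Cfap43 led with 1.212, 1.324 and 1.184, at a TSS 81926 bp inside the gene in pachynema. Its annotated 5′ end, near the start of Itprip, had a separate pachynema peak with a score of 0.887. Cfap57 scored 1.070, 1.142 and 1.104, next to the divergent gene Ebna1bp2. Cfap100, whose protein pairs with CFAP73 in the inner arm anchor, scored 1.195, 1.204 and 1.032, while Cfap73 itself went from 1.211 to 0.496 and had no diplonema call. Cfap44, whose protein pairs with CFAP43 in the tether, scored 0.956, 0.820 and 0.592. Both pairs thus hold a gene in the upper part and a gene in the lower part of the pachynema list. Of the 11 genes for proteins inside the microtubules, 11, 11 and 8 were called. Cfap161 was the highest in pachynema with 1.300, and Tekt1 stood higher in diplonema, at 1.177 and percentile 92.2 against 1.103 and 59.7 in pachynema, while Tekt2, Tekt5 and Cfap53 had no diplonema call. Tekt3 scored 1.227, 1.113 and 0.878 and Tekt4 1.092, 1.179 and 1.028, so the 5 tektin genes went in different directions. Cfap20, for a protein of the inner junction of the doublet, scored 1.091, 1.135 and 0.899, and its partner at the junction Cfap52 scored 0.924, 0.673 and 0.671.

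Of the 8 outer dense fibre genes, 6, 7 and 7 were called. Odf1, for the main dense fibre protein, scored 1.187, 1.200 and 1.120, and Odf2 scored 1.088, 1.043 and 0.815. The high Odf3l1 scores came from a TSS 12716 bp inside the gene, while its annotated 5′ end, which faces Cspg4 on the other strand, had no peak within reach. Odf4 moved up in rank from percentile 19.1 in pachynema to 56.3 in diplonema. Genes matched by symbol include some that are not known as axoneme genes: Spag5 encodes a spindle protein, Spag9 a kinase scaffold and Spag4 a nuclear envelope protein, with pachynema scores of 1.237, 1.129 and 1.054. Spag1, for a factor of dynein arm assembly, scored 1.077. Without the Spag genes, 67, 66 and 60 of 72 were called (93.1%, 91.7% and 83.3%).

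Of the remaining genes, Dnah14, a heavy chain gene, scored 1.120, 1.395 and 1.334, and Gm23690 also has a TSS under 1000 bp away. The Dnah14 promoter and those of Spag5 and Odf3l1 are shown as examples. Each had the highest pachynema score of its class and a motif word in the 150 bases before the TSS. Most other leading genes had no word there or an annotated exon in the window. Each run ends at the base before the TSS, and the capitals mark RFX and MYB words. The mm10 positions are chr1:181576409-181576558 (plus strand) for Dnah14, chr11:78301379-78301528 (plus) for Spag5 and chr9:56851964-56852113 (minus) for Odf3l1.
Dnah14: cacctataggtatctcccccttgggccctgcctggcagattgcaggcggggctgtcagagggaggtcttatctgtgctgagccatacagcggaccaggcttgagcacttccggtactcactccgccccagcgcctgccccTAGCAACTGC
Spag5: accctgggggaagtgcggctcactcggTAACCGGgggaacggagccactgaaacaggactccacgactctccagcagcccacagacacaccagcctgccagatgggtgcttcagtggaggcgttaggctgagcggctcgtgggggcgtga
Odf3l1: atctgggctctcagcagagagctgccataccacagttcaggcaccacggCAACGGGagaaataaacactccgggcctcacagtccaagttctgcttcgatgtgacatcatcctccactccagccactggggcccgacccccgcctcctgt

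In Dnah14 the RFX word TAGCAAC begins 10 bases before the TSS and overlaps the MYB word CAACTGC, which begins 7 bases before it. Spag5 and Odf3l1 have MYB words alone, starting 123 and 101 bases before the TSS.

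The other 11 called genes grouped with Dnah14, of mixed or less settled roles, ran from percentile 20.3 (Cfap97d2) to 96.3 (Cfap99) in pachynema. Cfap65, for a protein needed for sperm tail formation, scored 1.264, 1.237 and 0.917, Cfap58 1.290, 1.178 and 1.067, and Cfap36 1.256, 1.296 and 1.159. Cfap77 went from 0.965 to 0.730 and 0.338, or from percentile 40.1 to 24.7 and 4.39.

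Ranks of single genes differed between lists. The lists differ in length and hold no replicate spread, so these shifts were not tested. From leptonema/zygonema to pachynema the median change in percentile was 4.21 points over 73 genes, with 41 up and 32 down, against 0.498 points for all genes. The 5 largest shifts upward were those of Dnah14 (60.2 to 99.2), Rsph1 (61.6 to 89.6), Dnah7a (24.5 to 50.0), Cfap97 (45.0 to 68.9) and Dnaic1 (68.3 to 92.0). The 5 largest shifts downward were those of Cfap73 (76.7 to 10.8), Tekt2 (82.8 to 27.4), Cfap54 (89.9 to 47.8), Tekt5 (53.0 to 18) and Cfap70 (44.7 to 16.7). A change of over 20 points upward was seen in 15.1% of these genes and 11.1% of all genes, and downward in 9.59% and 10.8%.

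From pachynema to diplonema the median change was -0.627 points over 69 genes, with 32 up and 37 down, against -4.31 points for all genes. Ranks are among all genes called in each list, whereas the change is taken over genes called in both, so the median of all genes need not be 0. Upward the largest were Dnah1 (35.3 to 98.4), Odf4 (19.1 to 56.3), Dnah7a (50.0 to 85.4), Tekt1 (59.7 to 92.2) and Cfap97d2 (20.3 to 46.4). The 2 Cfap97d2 values belong to different TSSs, the gene 5′ end in pachynema and a TSS 2396 bp inside the gene in diplonema. No diplonema peak covered the Cfap97d2 5′ end. Downward they were Cfap99 (96.3 to 31.6), Dnah6 (91.1 to 42.1), Cfap45 (88.6 to 45.8), Cfap221 (91.8 to 54.3) and Cfap97d1 (61.5 to 28.0). Dnah7a moved up at both steps. A shift downward of over 20 points was seen in 15.9% of these genes and 21.7% of all genes.

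**Figure D4:**
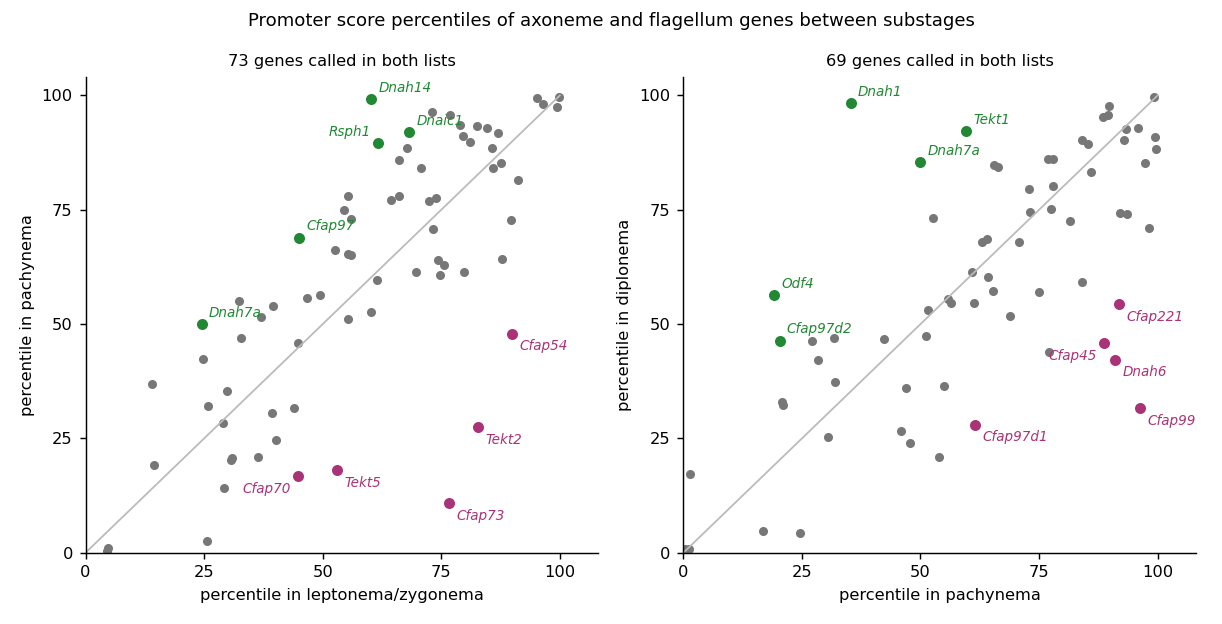
Promoter score percentile in leptonema/zygonema against pachynema (left, 73 genes) and in pachynema against diplonema (right, 69 genes); each point is a gene called in both lists, and the line marks equal ranks. The 5 largest shifts upward are green and the 5 largest downward purple, among them Dnah14 at 60.2 to 99.2 and Cfap73 at 76.7 to 10.8 on the left, and Dnah1 at 35.3 to 98.4 and Cfap99 at 96.3 to 31.6 on the right.

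The promoter peaks were wide and close to the start. The highest-scoring peak covered a TSS of its gene in 70 of 77, 69 of 75 and 63 of 69 genes (90.9%, 92.0% and 91.3%), against 82.7%, 81.4% and 81.8% of all called genes. Its median width was 690, 710 and 630 bp, against 580, 620 and 570 bp. The centre lay a median of 50, 65 and 60 bp from the TSS, against 81, 84 and 80 bp. These genes also have more annotated TSSs, a median of 4 against 3, and are longer, a median of 41.2 kb against 17.6 kb. With the 5′ end of the gene as the only TSS, 74, 71 and 64 of 84 were called (88.1%, 84.5% and 76.2%), against 55.9%, 56.5% and 48.1% of all genes.

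Most genes kept the same peak across substages. The highest-scoring promoter peaks of leptonema/zygonema and pachynema overlapped in 68 of 73 genes (93.2%, against 89.1% of all genes), and those of pachynema and diplonema in 63 of 69 (91.3%, against 88.8%). Between leptonema/zygonema and diplonema they overlapped in 57 of 67 (85.1%, against 85.7%). The exceptions between pachynema and diplonema were Cfap126, Cfap97, Cfap97d2, Dnah8, Odf2 and Spag9. In Dnah8 the strongest peak moved from a TSS 114659 bp inside the gene in pachynema to one 2581 bp from the 5′ end in diplonema, where the peak covers a TSS of the divergent gene Glo1. In Odf2 it moved from 14323 bp to 1319 bp. In Cfap126 and Cfap97 it moved inward, to TSSs 7743 bp and 11880 bp from the 5′ end. The strongest peak belonged to a TSS at least 1000 bp inside the gene in 8 of 77, 7 of 75 and 10 of 69 genes (10.4%, 9.33% and 14.5%), against 13.8%, 12.9% and 11.8% of all called genes. Cfap43, Dnah8, Odf2, Odf3l1, Spag1, Spag6 and Tekt4 used such a TSS in every list. For Spag6 it lay 4991 bp and for Tekt4 16982 bp inside the gene in pachynema.

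Shared promoters were about as common as among all genes. Another gene had a TSS under 1000 bp away in 24 of 84 (28.6%, against 27.1% of all genes), and 11 (13.1%, against 12.7%) faced a protein-coding gene on the other strand, all of which were called in every list. Of all genes with such a neighbour 92.9%, 92.5% and 87.1% were called, so a high share there is also seen in the background. Among the 11 were Cfap52 with Stx8, Cfap61 with Crnkl1, Cfap97 with Snx25, Cfap97d1 with Dusp3, Cfap99 with Zfyve28 and Dnah8 with Glo1. Among the 60 genes with no other gene's TSS under 1000 bp away, 54, 52 and 47 were called (90.0%, 86.7% and 78.3%), against 52.1%, 52.6% and 43.4% of all genes without one.

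Inside the genes and away from any TSS, the lists had 125, 103 and 41 peaks in 42, 38 and 18 genes (50.0%, 45.2% and 21.4%, against 26.7%, 24.8% and 13.7% of all genes). Per length this was 1.55, 1.28 and 0.508 peaks per 100 kb, close to the 1.40, 1.23 and 0.520 of all genes. Dnah7c held 6, 10 and 5 of them, and Dnah9 6, 6 and 4.

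Other genes of the axoneme, of cilium assembly, of the fibrous sheath and of ciliary regulation also had high call rates. Of 53 listed, 51, 52 and 48 were called (96.2%, 98.1% and 90.6%, against 60.7%, 61.2% and 52.3% of all genes), at median percentiles of 72.5, 64.4 and 64.3, and Zmynd10, for a dynein assembly factor, was the only one without a call. All 14 intraflagellar transport genes, all 8 genes of the nexin-dynein regulatory complex and all 5 dynein docking genes were called in all 3 lists. In the regulatory complex, which links neighbouring doublets, Drc3 (1.284, 1.338 and 1.171) and Gas8 (1.144, 1.289 and 1.027) had the highest pachynema scores and Drc1 (0.812, 0.653 and 0.517) the lowest. Among transport genes Ift172 (1.301, 1.341 and 1.023) was the highest in pachynema and Ift140 (1.106, 0.735 and 0.653) the lowest. Hydin, for a large central pair protein, ranked at percentiles of 98.5, 97.0 and 99.6, and the dynein assembly gene Dnaaf1 at 98.9, 98.9 and 99.4. The 5 fibrous sheath genes were called in all lists, with median percentiles of 81.5, 56.9 and 26.1. Akap3, for an anchoring protein of the sheath, ranked at 91.8, 36.2 and 26.1, and Cabyr, for a calcium-binding sheath protein, at 97.6, 84.9 and 15.0.

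Regulators of ciliary genes were called in 6, 7 and 5 of 7 cases. Rfx2, for the RFX factor known from the testis, had a low score, with 0.498, 0.508 and 0.612. Rfx1 scored 1.316, 1.252 and 1.092 and Rfx3 1.268, 1.230 and 1.021. Foxj1, the master factor of motile cilia, went from percentile 84.5 to 40.4 and 37.2, Gmnc was called in leptonema/zygonema and pachynema, and Mcidas in pachynema alone with 0.609.

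Marker genes were called to different extents by cell type, beside 60.7%, 61.2% and 52.3% of all genes. All 5 spermatocyte markers were called in every list, and their scores went in different directions. Sycp3, for a protein of the synaptonemal complex, scored 1.030, 1.205 and 1.230, and Sycp1 1.245, 1.242 and 1.247. Spo11 (1.110, 1.052 and 0.871) and Dmc1 (1.106, 0.768 and 0.507) were lower at each step. Mlh3 scored 0.802, 1.099 and 0.468. Of 6 spermatid markers 5 were called in each list and Tnp2 in none. Tnp1, for a transition protein, scored 0.981, 0.956 and 1.023 and Spaca1, for an acrosome protein, 1.319, 1.245 and 1.148. Acrv1 scored 1.316, 1.297 and 0.972. Prm1 and Prm2 had the same lower scores, 0.676, 0.561 and 0.747, so their calls may rest on the same peak. Of 5 spermatogonia markers 4, 4 and 3 were called and Gfra1 was called in none. Sertoli markers were called in 2, 4 and 3 of 5 cases, without Amh in any list, and Leydig markers in 0, 1 and 0 of 5, the call being Cyp11a1 with 0.414. Of 4 ciliated epithelium markers 3, 4 and 2 were called. Lists of calls hold no levels, so the share of other cells in the calls of axoneme genes was not tested.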

How the data were processed

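leChRO-seq libraries of 12 samples were processed by the authors: PCR duplicates were removed by molecular identifier with PRINSEQ lite, adapters trimmed with cutadapt, reads mapped to mm10 plus rRNA sequence with BWA, and dREG run with default settings on merged libraries. The submitters' notes also name bedtools, and versions are not given in the sources used here. The labels say single-end and the paper paired-end sequencing. Each deposited list gives a dREG score, a p-value (none above 0.05) and a peak centre position. No counts are in the lists, so the depth behind a call is not known from them.

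Peaks were used as deposited with GENCODE M21 TSSs and the GRCm38 sequence (mm10). Nothing was pooled further and 0 columns of per-sample values were left out. Counts, medians and percentiles are descriptive, and no tests were made. Genes were named by rule: the ruler genes, genes called in 1 substage or in a pattern of at most 5 genes, genes without a call, the 3 highest and 3 lowest scores, the highest pachynema score of each class, and the 5 largest rises and falls. Other genes named, such as Hydin, Dnah8 and the 6 genes without a diplonema call, were chosen after their values were seen. The members, lists and motif words were chosen with earlier results of these data known. Alternatives were a higher score, a lower p-value, lists of equal length, other distances and TSS sets, and leaving out shared promoters or Spag genes. The steps were tested on simulated data. Python 3.11.15, pandas 2.3.3, numpy 2.4.6, scipy 1.17.1 and matplotlib 3.10.9 were used. Some results are not reported here.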

Additional observations from a re-analysis of the deposited data

How the results depend on the processing

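Over 10 alternatives, 79 values of calls and ranks were recomputed, and 74 stayed within 1.5 times the count or within the range set for ranks. Genes called ranged from 86.9% to 93.1% in leptonema/zygonema, 83.3% to 91.7% in pachynema and 76.2% to 83.3% in diplonema, above the background of the same setting in all 10 alternatives. With a score of at least 0.5, genes called in pachynema and not in leptonema/zygonema numbered 1 instead of 2 (1.19%, against 3.43% of all genes). Genes with no call then numbered 10 instead of 5 (11.9%, against 41.5% of all genes). With lists of equal length the former numbered 1 (1.19%, against 3.77%). With the gene 5′ end as the only TSS, genes with no call numbered 8 (9.52%, against 40.0%). Without Spag genes they numbered 3 (4.17%, against 35.2%). Those settings keep fewer peaks, TSSs or genes. In windows of 150 bases either side of the pachynema peak centre, an alternative chosen after seeing the data, RFX words were in 42.7% of called genes (all genes 8.93%), MYB words in 54.7% (33.5%) and CREB words in 2.67% (4.59%).

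No paired analysis was possible because the 3 lists come from merged libraries and hold no replicate columns. Leaving out a replicate was not run, since the libraries were merged before calling. The lists do not give the depth behind a call, and a gene without a call is not shown to be silent.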
